A study of Mus musculus with 20 samples.

Results

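Of 34536 autosomal regions made by merging the H3K27ac peak lists of 4 genotypes, 1293 (3.74%) lay more than 3000 bp from every annotated transcript start, had a peak in WT and in Tet2-/- cells, and had none in Ep300Δ/Δ or Ep300Δ/ΔTet2-/- cells. They were selected on exactly these H3K27ac calls, so the absence of acetylation after Ep300 deletion is how the regions were chosen and is not a result. They are called doubly lost regions here, because the call was lost on both the Tet2-intact and the Tet2-null background. The label of the group speaks of acetylation that needs Ep300, but the lists show only where a peak was called. The doubly lost regions came mostly from the weaker part of the WT and Tet2-/- lists, as did regions away from transcript starts in general.

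The cells were Lin- bone marrow cells, which remain when cells carrying surface markers of mature blood lineages are depleted and are rich in stem and progenitor cells. All 4 groups of mice carried floxed Ep300 alleles (Ep300 fl/fl) and received poly(I:C), a double-stranded RNA mimic that induces interferon, in 3 doses at 6 to 8 weeks of age. WT mice had no Cre, Ep300Δ/Δ mice (labelled p300 Knockout) carried Mx1-Cre, Tet2-/- mice (Tet2 Knockout) lacked Tet2 and had no Cre, and Ep300Δ/ΔTet2-/- mice (p300 Tet2 Knockout) had Mx1-Cre and no Tet2. Mx1-Cre is driven by an interferon-responsive promoter and recombines in blood cells but also in other tissues, whereas the Tet2 deletion was constitutive. The study's methods place experiments in general at 2 weeks after poly(I:C) unless another time is named, and whether mice were pooled for these libraries is not given in the sources used here. There was 1 library for each genotype and histone mark, from cells of a stated purity above 80%. Variation among mice was therefore not measured, and no test between genotypes was possible.

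The H3K27ac lists held 29659 peaks in WT, 22727 in Ep300Δ/Δ, 24539 in Tet2-/-, and 18327 in Ep300Δ/ΔTet2-/- cells. Peak lists do not give the sequencing depth, and a shallower library or a weaker precipitation also yields fewer peaks, so depth, yield, and genotype cannot be told apart. As a check of the cell type, 8 or 9 of 10 stem and progenitor markers had an H3K27ac peak within 3000 bp of a start in each list, and 0 of 10 markers of other tissues had one. Of 5 markers of each lineage, T cells had 1 in every list (Trac), and granulocytes had 1 in WT and Tet2-/- and 0 in either Ep300-deleted list (Camp). Erythroid markers were 3, 3, 2, and 2 of 5 in WT, Ep300Δ/Δ, Tet2-/-, and Ep300Δ/ΔTet2-/- cells. The part of such cell composition in the regions below was not tested.

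p300, the product of Ep300, is a transcriptional coactivator and lysine acetyltransferase that is brought to DNA by transcription factors and acetylates histone H3 at lysine 27, together with its close relative CBP. H3K27ac marks active enhancers and promoters. H3K4me1 is laid down at enhancers by other enzymes and is also found at enhancers that are poised or were recently active, whereas H3K4me3 is mainly a mark of promoters. TET2 oxidizes 5-methylcytosine in DNA, much of it at enhancers, and its loss is frequent in myeloid disease.

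The sequences of strongly acetylated doubly lost regions are shown first. They are among the regions with the highest rank in both the WT and the Tet2-/- list, and each line gives the reference sequence of GRCm38 (mm10), plus strand, 100 bp on either side of the WT H3K27ac summit, with matches to the motifs searched below in capitals. The nearest protein-coding transcript start names each region.

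Trdmt1, chr2:13538783-13538983: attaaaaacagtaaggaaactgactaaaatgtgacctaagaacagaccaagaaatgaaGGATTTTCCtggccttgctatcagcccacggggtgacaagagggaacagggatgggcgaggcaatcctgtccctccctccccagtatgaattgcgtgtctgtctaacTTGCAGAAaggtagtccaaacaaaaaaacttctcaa
Klf6, chr13:5779092-5779292: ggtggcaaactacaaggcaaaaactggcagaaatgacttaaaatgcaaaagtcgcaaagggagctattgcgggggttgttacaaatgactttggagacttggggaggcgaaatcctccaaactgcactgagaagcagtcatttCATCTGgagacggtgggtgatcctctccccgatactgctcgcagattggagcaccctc
Smox, chr2:131423076-131423276: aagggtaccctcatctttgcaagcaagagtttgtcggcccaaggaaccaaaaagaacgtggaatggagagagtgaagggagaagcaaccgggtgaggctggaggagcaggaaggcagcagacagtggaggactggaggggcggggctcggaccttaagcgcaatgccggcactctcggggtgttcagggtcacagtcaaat
S100a11, chr3:93506187-93506387: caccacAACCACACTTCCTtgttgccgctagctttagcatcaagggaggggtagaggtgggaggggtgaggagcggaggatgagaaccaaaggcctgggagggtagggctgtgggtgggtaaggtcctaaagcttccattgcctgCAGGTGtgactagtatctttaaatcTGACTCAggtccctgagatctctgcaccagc
Mrpl1, chr5:96221903-96222103: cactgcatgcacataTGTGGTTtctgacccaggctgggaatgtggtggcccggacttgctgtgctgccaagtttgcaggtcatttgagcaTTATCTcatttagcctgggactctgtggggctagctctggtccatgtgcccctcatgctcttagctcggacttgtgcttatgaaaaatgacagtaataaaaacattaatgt
Shank2, chr7:144056530-144056730: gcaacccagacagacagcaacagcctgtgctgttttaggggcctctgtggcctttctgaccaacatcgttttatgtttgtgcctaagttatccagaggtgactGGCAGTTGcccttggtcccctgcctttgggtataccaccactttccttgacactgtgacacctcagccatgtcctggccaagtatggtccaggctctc
Acoxl, chr2:128008819-128009019: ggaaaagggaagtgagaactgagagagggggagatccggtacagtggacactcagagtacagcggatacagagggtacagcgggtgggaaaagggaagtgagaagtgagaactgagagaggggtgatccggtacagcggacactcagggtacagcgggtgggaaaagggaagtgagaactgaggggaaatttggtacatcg
Ercc6l2, chr13:63917257-63917457: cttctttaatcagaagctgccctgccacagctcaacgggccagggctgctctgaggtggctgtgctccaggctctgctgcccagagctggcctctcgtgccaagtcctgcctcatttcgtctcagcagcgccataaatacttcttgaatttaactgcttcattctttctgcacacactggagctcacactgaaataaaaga

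Of these windows, the one at S100a11 held ETS, RUNX, AP-1, and E-box matches, with the RUNX and ETS letters running into each other, the one at Mrpl1 held RUNX and GATA matches, and the one at Trdmt1 held NF-kB and C/EBP matches. The windows at Smox, Acoxl, and Ercc6l2 held none of the 11 motifs.

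Regions at Snx29, Pde4d, Me1, and Prkcb are shown because they had lost H3K4me1 as well in both Ep300-deleted genotypes, as 28 regions of the class had, and the Shank2 window above belongs with them.

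Snx29, chr16:11676262-11676462: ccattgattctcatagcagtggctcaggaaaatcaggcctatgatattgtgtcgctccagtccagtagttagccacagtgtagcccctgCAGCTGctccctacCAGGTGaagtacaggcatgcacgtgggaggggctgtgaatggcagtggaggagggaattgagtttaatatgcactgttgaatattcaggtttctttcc
Pde4d, chr13:108775730-108775930: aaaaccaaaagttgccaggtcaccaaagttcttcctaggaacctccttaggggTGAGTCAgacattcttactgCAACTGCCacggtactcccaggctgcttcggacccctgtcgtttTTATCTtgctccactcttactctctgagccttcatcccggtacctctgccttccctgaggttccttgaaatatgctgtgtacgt
Me1, chr9:86624008-86624208: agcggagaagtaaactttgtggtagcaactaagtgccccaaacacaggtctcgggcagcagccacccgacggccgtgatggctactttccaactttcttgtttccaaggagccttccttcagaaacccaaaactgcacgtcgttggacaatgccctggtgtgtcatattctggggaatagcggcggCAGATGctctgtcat
Prkcb, chr7:122258805-122259005: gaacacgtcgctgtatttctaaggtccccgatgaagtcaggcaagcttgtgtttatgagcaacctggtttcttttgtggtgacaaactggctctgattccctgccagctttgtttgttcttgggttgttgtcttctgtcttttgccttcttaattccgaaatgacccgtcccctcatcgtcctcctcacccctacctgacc

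Among all distal regions the H3K27ac call was lost in 62.9% of those with a WT peak when Ep300 was deleted on the Tet2-intact background, and in 61.1% of those with a Tet2-/- peak on the Tet2-null background. Distal regions acetylated in both WT and Tet2-/- cells numbered 4554, and in 1293 of them (28.4%, 95% interval 27.1% to 29.7%) both Ep300-deleted lists were empty. In 2015 (44.2%) a peak was present in all 4 genotypes, in 863 the only Ep300-deleted list with a peak was Ep300Δ/Δ, and in 383 it was Ep300Δ/ΔTet2-/-. Intervals here are exact Clopper-Pearson intervals and cover counting error over regions only. The reverse pattern, a peak in both Ep300-deleted lists and in neither of the others, was found in 96 distal regions. A region that had lost its call on the Tet2-intact background had also lost it on the Tet2-null background in 1293 of 1676 cases (77.1%), against 863 of 2878 regions (29.99%) that had kept it, a statement on the calls that chose the regions and not an independent one.

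The deposited fold enrichment over the H3 library had a median of 5.36 in WT and 4.72 in Tet2-/- cells at the doubly lost regions. In WT this was close to the median of all 10209 distal regions with a WT peak (5.41), in Tet2-/- cells it was below that of all 6991 with a Tet2-/- peak (5.13), and the medians of the regions with a peak in all 4 genotypes were higher, at 9.15 and 7.69. Ranked within its own list, the median doubly lost region stood at the 34.2th percentile of WT peaks and the 27.5th of Tet2-/- peaks, where the medians over all distal peaks were at the 34.8th and 33.1th, and 73 regions (5.65%) ranked above the median of both lists. None of the 1293 was among the top 10% of either list. Regions with a peak in all 4 genotypes had medians at the 66.4th and 58.9th percentiles, and 1055 of them (52.4%) ranked above the median of both lists. Since strength differed between these sets, values below are also given within 4 strength classes, which hold about equal numbers of the 4554 regions by H3K27ac fold enrichment.

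**Figure D1:**
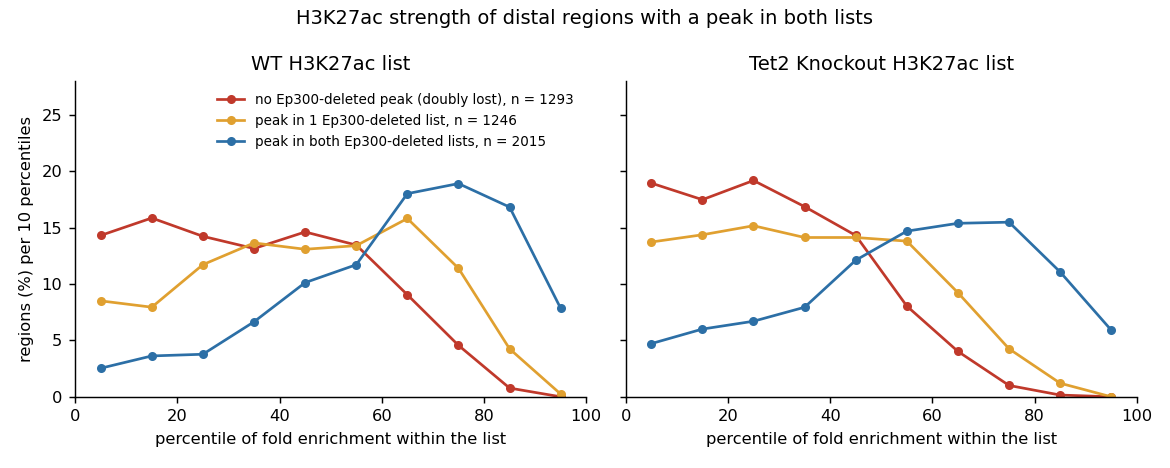
Percentile of the H3K27ac fold enrichment within the WT list (left) and the Tet2 Knockout list (right) for distal regions with a peak in both lists. Points give the share of regions (%) in each step of 10 percentiles for regions with no peak in an Ep300-deleted list (1293), in 1 (1246), or in both (2015). The doubly lost regions lie toward the weak end of both lists and have 0 regions in the top step.

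The share of distal regions that were doubly lost went from 50.9% (580 of 1139) in the weakest class of WT fold enrichment, through 34.3% and 22.3%, to 6.06% (69 of 1139) in the strongest. Regions kept in 1 Ep300-deleted list lay between: their median fold enrichment was 6.33 in WT and 5.23 in Tet2-/- cells. The Ep300-deleted peaks that had kept those regions out of the class were themselves weak, with a median percentile of 25.6 in the Ep300Δ/Δ list and 26.6 in the Ep300Δ/ΔTet2-/- list. Most had no Ep300-deleted peak close by: the nearest Ep300Δ/Δ peak was a median of 10496 bp away and the nearest Ep300Δ/ΔTet2-/- peak 12800 bp away, although 225 regions (17.4%) had a peak of either list within 500 bp. The doubly lost regions had a median width of 512 bp, above the 401 bp of all distal regions and below the 961 bp of regions with a peak in all 4 genotypes. Their WT and Tet2-/- summits were a median of 49 bp apart. At the distance limit, the innermost regions taken in lay 3008 bp from a start of Foxp1 and 3016 bp from starts of Fads2 and Selenon, and regions with the same calls just outside it lay 3000 bp from Brd3, 2995 bp from Spi1, and 2991 bp from Igf1r.

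The regions shown first above, and 1 on chromosome 18, had the following values, with Shank2 given later. The region nearest Sncaip (chromosome 18), 70610 bp from its start and overlapping an annotated exon, had an H3K27ac fold enrichment of 12.2 in WT and 13.6 in Tet2-/- cells and kept H3K4me1 in all 4 lists. The region in an intron of Trdmt1, which encodes a tRNA methyltransferase, had 13.5 and 11.8, and its H3K4me1 enrichment was 5.89 in WT, 7.74 in Ep300Δ/Δ, 8.35 in Tet2-/-, and 10.2 in Ep300Δ/ΔTet2-/- cells. There the methylation mark was called in every genotype while acetylation was called in 2. An intergenic region 82129 bp from the start of Klf6, which encodes a zinc finger factor, had an H3K27ac enrichment of 13.3 in WT and 10.4 in Tet2-/- cells, and H3K4me1 of 6.58, 7.53, and 12.5 in WT, Ep300Δ/Δ, and Tet2-/- cells with no call in Ep300Δ/ΔTet2-/- cells. The intergenic region nearest S100a11, a calcium-binding protein gene, had 13.7 and 9.01 for H3K27ac, and its H3K4me3 enrichment was 32.1, 9.31, 26.5, and 22.3 in WT, Ep300Δ/Δ, Tet2-/-, and Ep300Δ/ΔTet2-/- cells. The region nearest Smox, which encodes spermine oxidase, also carried H3K4me3 in all 4 lists, at 37.2, 16.7, 55.3, and 15.1 in that order. H3K4me3 of this height at S100a11 and Smox is unusual for the class, as its median in WT was 7.57 over the 272 doubly lost regions with a call. The intronic region of Mrpl1, a mitochondrial ribosomal protein gene, had 14.4 and 8.98 and H3K4me1 in every genotype. The Ercc6l2 region had 8.69 in WT and 14.4 in Tet2-/- cells and no H3K4me1 call in Ep300Δ/ΔTet2-/- cells. The Acoxl region had 10.6 and 8.53, no H3K4me1 in any genotype, and an Ep300Δ/Δ peak only 58 bp away, which did not overlap and so counted as absent. Enrichments are relative to the H3 library of the same genotype, so they rank peaks within a list and are not amounts that can be compared between genotypes.

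H3K4me1, a mark the selection did not use, was largely still called where acetylation was not. It overlapped 1207 of the 1293 doubly lost regions in WT (93.3%, 91.9% to 94.6%), 1129 in Ep300Δ/Δ (87.3%, 85.4% to 89.1%), 1207 in Tet2-/- (93.3%), and 1144 in Ep300Δ/ΔTet2-/- cells (88.5%, 86.6% to 90.2%). It was called in all 4 genotypes at 1034 regions (80.0%) and in none at 31 (2.40%). Over all 14067 distal regions the shares were 82.6%, 78.2%, 82.2%, and 80.0% in the same order of genotypes, and 68.1% in all 4. These calls depended on the threshold: with a −log10 q of at least 5 required of H3K4me1 peaks, the mark was called at 67.9% of doubly lost regions in Ep300Δ/Δ and 75.8% in Ep300Δ/ΔTet2-/- cells. The H3K4me1 and H3K27ac peaks of a genotype were called against the same H3 library, so the marks are not wholly independent measurements.

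**Figure D2:**
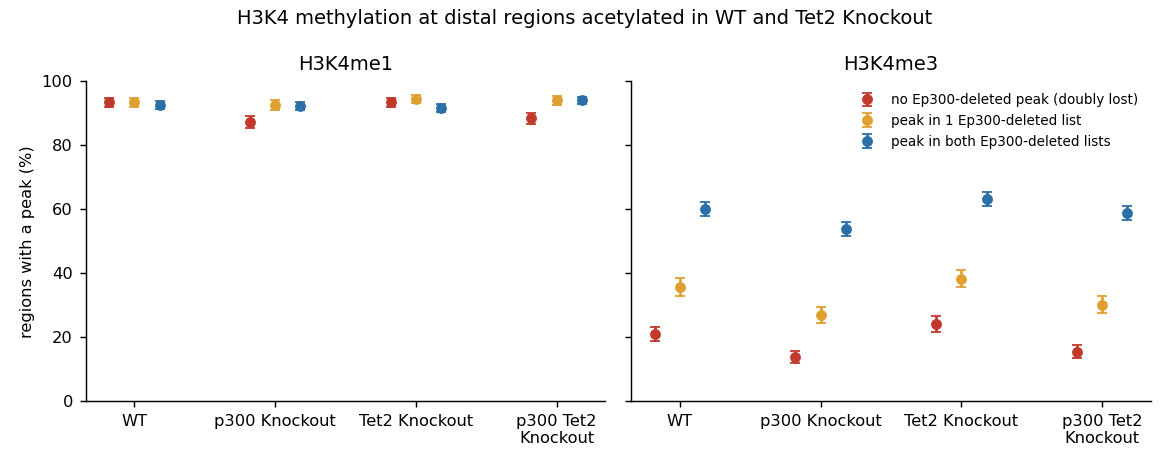
Share of distal regions (%) with an H3K4me1 peak (left) or an H3K4me3 peak (right) in each genotype, 1 library each. Points are doubly lost regions (red, 1293), regions with H3K27ac in 1 Ep300-deleted list (yellow, 1246), and regions with H3K27ac in all 4 lists (blue, 2015), with exact 95% intervals over regions. H3K4me1 lies between 87.3% and 94.5% throughout, with the doubly lost regions lowest in both Ep300-deleted genotypes, and of the 3 classes H3K4me3 is least frequent at the doubly lost regions.

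Where H3K4me1 was present in WT, it was lost in Ep300Δ/Δ cells at 110 of 1207 doubly lost regions (9.11%, 7.55% to 10.9%). Over all distal H3K27ac regions, whatever their calls, the share was 10.5%, so the doubly lost regions did not stand above that background, which is made up largely of regions acetylated in 1 genotype. Against regions acetylated in all 4 genotypes the share was higher: these had lost H3K4me1 at 57 of 1865 (3.06%, 2.32% to 3.94%). On the Tet2-null background the loss was 84 of 1207 (6.96%, 5.59% to 8.54%) at doubly lost regions, 7.87% over all distal regions, and 33 of 1844 (1.79%, 1.23% to 2.50%) at regions acetylated throughout. The intervals of the 2 classes did not overlap on either background. Between WT and Tet2-/- cells, which both had Ep300, 39 of 1207 doubly lost regions had lost H3K4me1 (3.23%, 2.31% to 4.39%) and 67 of 1865 of the others (3.59%, 2.79% to 4.54%), a comparison in which the intervals did overlap. Between Ep300Δ/Δ and Ep300Δ/ΔTet2-/- cells, which both lacked Ep300, the shares were 64 of 1129 (5.67%, 4.39% to 7.18%) and 39 of 1859 (2.098%, 1.496% to 2.86%), and these intervals did not overlap, so loss of H3K4me1 calls was more frequent at doubly lost regions also where Ep300 was deleted in both genotypes. Over all distal regions the share was 6.71% in the former comparison and 6.92% in the latter. Regions acetylated in WT alone had lost H3K4me1 more often than the doubly lost regions, at 17.3% from WT to Ep300Δ/Δ and 12.5% on the Tet2-null background, and regions kept in 1 Ep300-deleted list less often, at 3.35% and 2.72%. With a −log10 q of at least 5 required of H3K4me1 peaks, the loss was 24.0% and 17.9% at doubly lost regions and 11.96% and 5.89% at regions acetylated throughout, and the intervals of these classes did not overlap.

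Regions with H3K27ac in 1 Ep300-deleted list allow the loss of H3K4me1 to be set beside the genotype without acetylation. The 383 regions that had no H3K27ac in Ep300Δ/Δ cells but had it in Ep300Δ/ΔTet2-/- cells lost H3K4me1 at 22 of 341 (6.45%, 4.09% to 9.61%) in the former and 8 of 345 (2.32%, 1.01% to 4.52%) in the latter. The 863 with the opposite pattern lost it at 17 of 823 (2.07%, 1.21% to 3.29%) in Ep300Δ/Δ and 24 of 832 (2.88%, 1.86% to 4.26%) in Ep300Δ/ΔTet2-/- cells. In each set the larger share belonged to the genotype without acetylation, but the intervals overlapped.

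The difference between doubly lost regions and regions acetylated throughout was largest among strongly acetylated regions. In the strongest class of WT H3K27ac enrichment, 13 of 64 doubly lost regions had lost H3K4me1 in Ep300Δ/Δ cells (20.3%, 11.3% to 32.2%), against 26 of 811 regions acetylated throughout (3.21%, 2.105% to 4.66%). From the next strongest class to the weakest the shares were 11.3%, 9.78%, and 6.41% at doubly lost regions and 3.11%, 2.54%, and 3.26% at the others. On the Tet2-null background the strongest class gave 10 of 56 (17.9%, 8.91% to 30.4%) against 21 of 843 (2.49%, 1.55% to 3.78%). Of the 4 classes on each background, the intervals overlapped only in the weakest of WT. H3K4me1 peaks that were themselves weak were lost most: in the lowest of 4 classes of WT H3K4me1 enrichment 57 of 315 were lost at doubly lost regions (18.1%) and 35 of 474 at the others (7.38%), and in the highest 8 of 281 (2.85%) and 1 of 481 (0.208%). In the class below the highest the intervals overlapped (3.57%, 1.73% to 6.47%, against 1.93%, 0.887% to 3.63%). On the Tet2-null background the lowest class gave 17.6% (13.5% to 22.3%) against 6.16% (4.16% to 8.72%). There the intervals overlapped in both upper classes, with 2.15% against 0.220% and, in the highest, 1.07% against 0%.

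**Figure D3:**
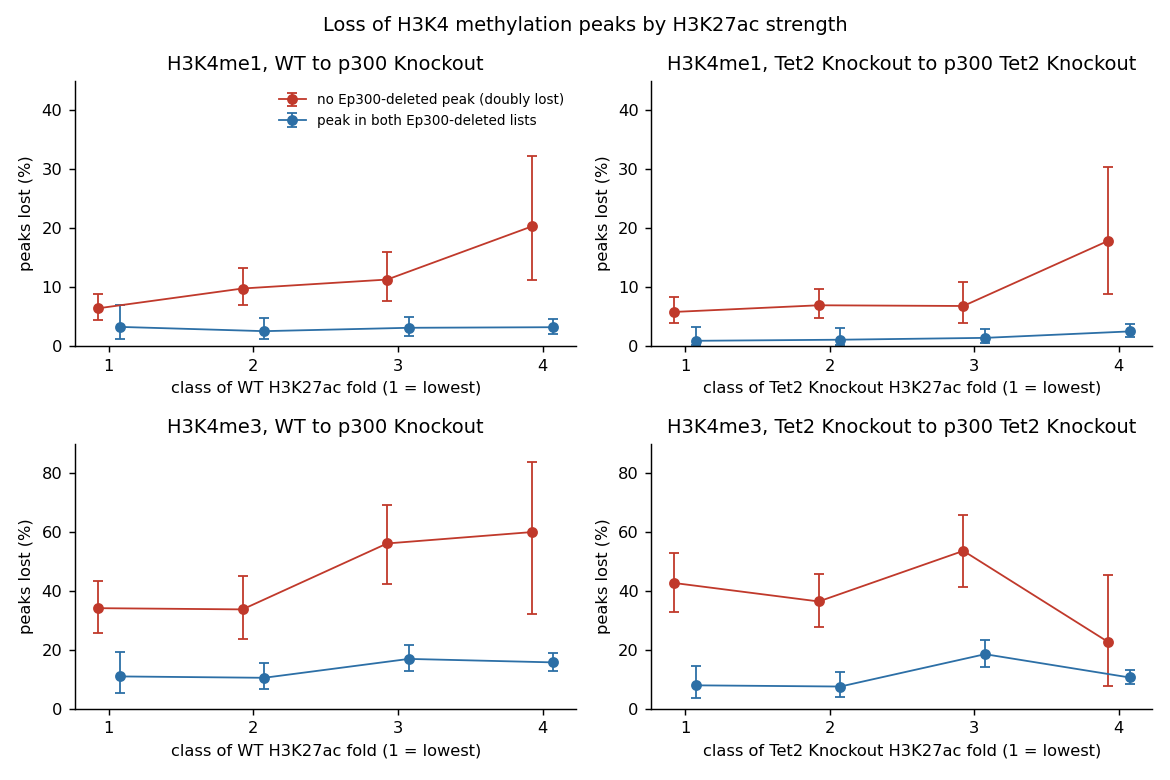
Share of H3K4me1 (top) and H3K4me3 (bottom) peaks (%) lost after Ep300 deletion on the WT (left) and Tet2-null (right) background, by class of H3K27ac fold enrichment in the genotype with Ep300 (1 lowest, 4 highest). Red points are doubly lost regions and blue points regions with H3K27ac in all 4 lists, with exact 95% intervals. H3K4me1 loss at doubly lost regions reaches 20.3% and 17.9% in the strongest class, and at the other regions it is at most 3.26% in any class.

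Loss of H3K4me1 in both Ep300-deleted genotypes, with a call in WT and Tet2-/- cells, was found at 28 doubly lost regions (2.17%) and 6 regions acetylated throughout (0.30%). Over all distal regions it was found at 286 of 14067 (2.03%), so the share at doubly lost regions was that of the background. Of the 28, the region with the highest H3K27ac rank, taking the lower of its WT and Tet2-/- percentiles, was an intronic region of Shank2 with the sequence shown above. Its H3K27ac enrichment was 9.58 in WT and 8.98 in Tet2-/- cells, its H3K4me1 enrichment was 5.61 and 6.81, and the nearest H3K27ac peak was 225811 bp away in Ep300Δ/Δ and 225208 bp in Ep300Δ/ΔTet2-/- cells. Shank2 encodes a scaffold protein known from synapses, and nearest start is only a label for a region. The region in an intron of Snx29 had H3K27ac of 7.90 and 8.36 and H3K4me1 of 6.26 and 8.09 in WT and Tet2-/- cells. One of the Pde4d regions, described below, had H3K27ac of 10.9 and 7.15 and H3K4me1 of 5.50 and 3.15, and also carried H3K4me3, at 11.4 in WT, 3.28 in Ep300Δ/Δ, 18.4 in Tet2-/-, and 5.14 in Ep300Δ/ΔTet2-/- cells. The Pde4d window held GATA, AP-1, MYB, and E-box matches. A region in Me1, the cytosolic malic enzyme gene, had H3K4me1 of 2.80 and 5.86 and H3K4me3 called in all 4 genotypes. The region nearest Prkcb, a protein kinase C gene, lay 29617 bp from its start and had the highest H3K4me1 of the 5, at 9.57 in WT and 11.0 in Tet2-/- cells.

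H3K4me3 was found at a minority of the doubly lost regions: 272 in WT (21.04%), 179 in Ep300Δ/Δ (13.8%), 312 in Tet2-/- (24.1%), and 200 in Ep300Δ/ΔTet2-/- cells (15.5%). Over all distal regions the shares were 23.9%, 19.4%, 25.0%, and 21.4% in that order, so those of the doubly lost regions were near them in WT and Tet2-/- cells and lower in the Ep300-deleted genotypes. At regions acetylated throughout, it was found at 60.0% in WT. In WT, 959 doubly lost regions (74.2%) had H3K4me1 without H3K4me3, the usual enhancer pattern, 248 (19.2%) had both, 24 had H3K4me3 alone, and 62 had neither. H3K4me3 was more frequent close to the distance limit, at 61 of 219 doubly lost regions (27.9%) within 3 to 5 kb of a start (22.03% to 34.3%) and 10 of 71 (14.1%, 6.97% to 24.4%) beyond 50 kb, with intervals that overlapped.

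Where H3K4me3 was called with Ep300 present, it was lost more often than H3K4me1. A call was counted where a peak overlapped any part of a region. Regions acetylated throughout were wider, with a median of 961 bp against 512 bp at doubly lost regions. The part of width in the H3K4me3 values was not tested. From WT to Ep300Δ/Δ cells 109 of 272 peaks were lost at doubly lost regions (40.1%, 34.2% to 46.2%), against 26.5% over all distal regions and 179 of 1210 (14.8%, 12.8% to 16.9%) at regions acetylated throughout. From Tet2-/- to Ep300Δ/ΔTet2-/- cells the shares were 129 of 312 (41.3%, 35.8% to 47.0%), 22.6%, and 151 of 1274 (11.9%, 10.1% to 13.8%). Regions acetylated in WT alone had lost 254 of 488 (52.0%, 47.5% to 56.6%) and 177 of 414 (42.8%, 37.9% to 47.7%), with intervals apart from those of the doubly lost regions on the WT background and overlapping on the Tet2-null background, and regions kept in 1 Ep300-deleted list had lost 138 of 444 (31.1%) and 133 of 477 (27.9%). H3K4me3 calls were lost more often at doubly lost regions than at regions acetylated throughout also between genotypes with the same Ep300 state. From WT to Tet2-/- cells the loss was 42 of 272 (15.4%, 11.4% to 20.3%) against 70 of 1210 (5.79%, 4.54% to 7.25%), and from Ep300Δ/Δ to Ep300Δ/ΔTet2-/- cells it was 33 of 179 (18.4%, 13.04% to 24.9%) against 5.71% (4.40% to 7.26%), with intervals that did not overlap. Over all distal regions these shares were 15.5% and 12.2%. H3K4me3 was gained at 16 of 1021 doubly lost regions without it in WT (1.57%) and 17 of 981 without it in Tet2-/- cells (1.73%), against 2.36% and 2.70% over all distal regions and 6.83% and 8.50% at regions acetylated throughout. H3K4me1 was gained at 32 of 86 doubly lost regions without it in WT (37.2%, 27.02% to 48.3%) and 21 of 86 without it in Tet2-/- cells (24.4%, 15.8% to 34.9%), against 24.6% and 23.8% over all distal regions and 34.0% and 48.5% (40.8% to 56.3%) at regions acetylated throughout, where the last interval lay above that of the doubly lost regions. At 100 of the 248 doubly lost regions with both H3K4 marks in WT, H3K4me3 was lost and H3K4me1 was kept in Ep300Δ/Δ cells (40.3%, 34.2% to 46.7%). The comparable share at regions acetylated throughout was 169 of 1083 (15.6%, 13.5% to 17.9%).

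Much of the H3K4me3 at doubly lost regions was weak, with a median WT enrichment of 7.57 against 11.8 at regions acetylated throughout, and weak peaks were lost most in both classes. In the lowest of 4 classes of WT H3K4me3 enrichment 64 of 91 peaks were lost at doubly lost regions (70.3%, 59.8% to 79.5%) and 121 of 248 (48.8%, 42.4% to 55.2%) at the others. The next class gave 40.7% and 19.0% and the one above it 17.1% and 2.25%, and in these 3 classes the intervals did not overlap. In the highest class 0 of 30 were lost at doubly lost regions (exact upper bound 11.6%) and 1 of 388 at the others. On the Tet2-null background the intervals overlapped in the highest class and also in the one below it. The latter gave 7 of 64 (10.9%, 4.51% to 21.2%) against 9 of 337 (2.67%, 1.23% to 5.01%). By H3K27ac strength, the loss from WT to Ep300Δ/Δ cells at doubly lost regions was 34.2%, 33.8%, 56.1%, and 60.0% from the weakest class to the strongest, against 11.0%, 10.5%, 16.9%, and 15.8% at regions acetylated throughout. Regions kept in 1 Ep300-deleted list gave 17.4%, 29.6%, 30.6%, and 57.1% in that order. In the strongest class the high loss was thus not particular to the doubly lost regions. In the strongest class on the Tet2-null background 5 of 22 peaks were lost (22.7%, 7.82% to 45.4%) against 73 of 687 (10.6%, 8.42% to 13.2%), and there the intervals overlapped.

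By position, 745 doubly lost regions lay in introns (57.6%, 54.9% to 60.3%), 434 between genes (33.6%, 31.0% to 36.2%), and 114 overlapped an exon (8.82%), close to the 55.7%, 36.5%, and 7.80% of all distal regions. Regions acetylated throughout were less often intronic, at 978 of 2015 (48.5%, 46.3% to 50.7%), and more often intergenic, at 855 (42.4%, 40.3% to 44.6%). The median distance to the nearest transcript start was 11079 bp and 10595 bp in the 2 classes, and to the nearest protein-coding start 15956 bp and 15663 bp. Doubly lost regions were found on all 19 autosomes, and the lowest and highest shares of the regions acetylated in WT and Tet2-/- cells were 22.1% on chromosome 17 (16.9% to 28.1%) and 34.4% on chromosome 15 (28.2% to 40.9%). The GC content of the 201-bp window at the WT summit was close in both classes, with medians of 51.7% and 52.2%. The median number of CpG dinucleotides in the window, the sites TET2 and DNA methyltransferases act on, was 3 at doubly lost regions and 4 at regions acetylated throughout. Windows without any CpG made up 109 of 1293 (8.43%, 6.97% to 10.1%) and 129 of 2015 (6.40%, 5.37% to 7.56%), with overlapping intervals.

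Short motifs of 11 factor families were searched on both strands in the same windows. ETS factors were searched as AGGAAGT and RUNX factors by the letters TGTGGTT. Factors of the GATA family were searched as AGATAA, C/EBP factors by the letters TTGCNNAA, and AP-1 dimers by TGANTCA. For MYB the motif was AACTGCC, for IRF factors it was GAAANNGAA, and for E-box factors it was CAGNTG. The NF-kB motif was GGANTTTCC, the KLF motif CCACACCC, and the CTCF motif AGGGGGC, where N is any base. These factors were chosen because they act in blood stem, myeloid, erythroid, and lymphoid cells or, for CTCF, at chromatin boundaries. The MYB and E-box letters can overlap, as in the Shank2 and Pde4d windows. The E-box was the most frequent, in 51.7% of doubly lost windows (49.0% to 54.5%) and 46.9% of windows acetylated throughout (44.7% to 49.2%), and in 49.1% of all 4554 windows. AP-1 was found in 7.19% and 6.005% of the 2 classes, C/EBP in 6.88% and 5.81%, GATA in 6.42% and 6.005%, ETS in 6.26% and 7.44%, and RUNX in 5.65% and 4.62%. IRF was found in 4.95% and 5.31%, MYB in 4.10% and 3.82%, CTCF in 3.25% and 4.02%, KLF in 2.24% and 2.78%, and NF-kB in 0.70% and 0.74%. For 0 of the 11 families were the intervals of the classes apart. At 393 doubly lost regions (30.4%) the window held no match, at 49 it held 3 families, at 10 it held 4, and at 1 it held 5. At regions acetylated throughout 675 of 2015 windows (33.5%) held none, with an interval that overlapped, and 69, 6, and 1 held 3, 4, and 5 families. With windows of 501 bp, ETS was found in 22.3% (20.03% to 24.6%) against 27.7% (25.7% to 29.7%), the only family whose intervals then did not overlap. At doubly lost regions GATA was found in 25.1% of the 501-bp windows and 6.42% of the 201-bp windows. The 201-bp windows thus left out many matches close by and do not speak for them. A match is a description of letters and does not show that a factor was bound.

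**Figure D4:**
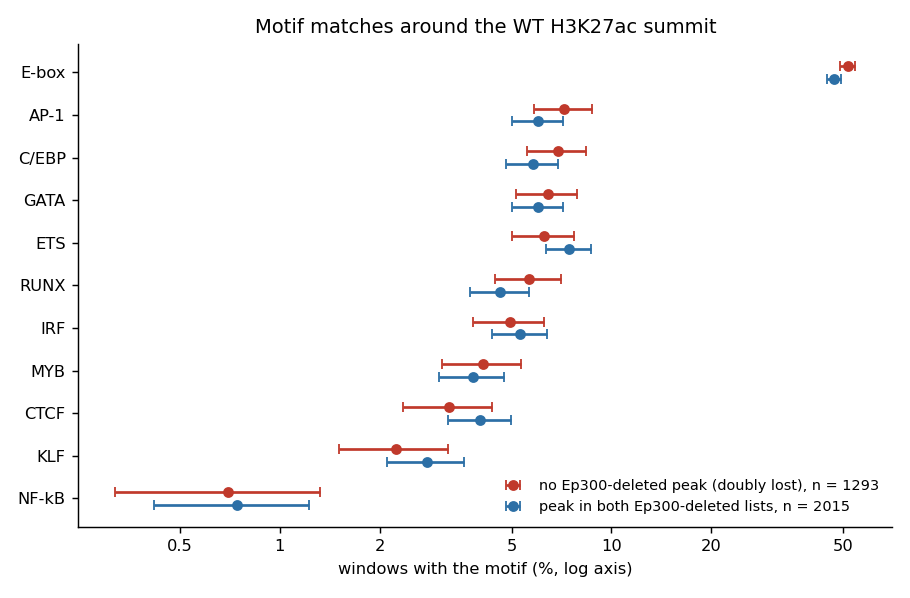
Share of 201-bp windows at the WT H3K27ac summit (%, log axis) that hold each motif on either strand, for doubly lost regions (red, 1293) and regions with H3K27ac in all 4 lists (blue, 2015), with exact 95% intervals over windows. The intervals of the 2 classes overlap for all 11 families.

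The nearest protein-coding starts of the doubly lost regions belonged to 1009 of the 2486 genes with any distal region acetylated in WT and Tet2-/- cells (40.6%). At 803 genes there was 1 such region, at 206 there were 2 or more, and at 53 there were 3 or more. Of the 1009 genes, 366 (36.3%) also had a region acetylated in all 4 genotypes, and at 498 every distal region acetylated in WT and Tet2-/- cells was doubly lost.

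Cdk6, the cyclin-dependent kinase that drives entry into the cell cycle in blood progenitors, had the most, with 7 doubly lost regions, 3 regions kept in 1 Ep300-deleted list, and 1 acetylated throughout. All 7 were intronic, between 7656 and 50636 bp from a protein-coding start (chromosome 5, 3362046 to 3495355), with H3K27ac enrichments from 3.68 to 10.9 in WT and from 3.43 to 8.91 in Tet2-/- cells. H3K4me1 was called at all 7 in WT and Tet2-/- and at 6 in each Ep300-deleted genotype. Asap1, which encodes an Arf GTPase-activating protein, had 6 doubly lost regions and no other distal region acetylated in WT and Tet2-/- cells. H3K4me1 was called at all 6 Asap1 regions in WT, Ep300Δ/Δ, and Tet2-/- cells and at 5 in Ep300Δ/ΔTet2-/- cells. Atp8b4, a phospholipid flippase gene, likewise had 4 of 4, within introns on chromosome 2 from 126468681 to 126496513, with WT enrichments from 7.496 to 12.5 and H3K4me1 in every genotype. Lats2, a kinase of the Hippo pathway, had 4 doubly lost regions of 5, with H3K4me1 at all 4 in every genotype.

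Pde4d, a cAMP phosphodiesterase gene, had 5 doubly lost regions of 7. A neighbouring pair of them on chromosome 13, at 108775082 to 108775556 and 108775646 to 108776220, lay under a common H3K4me3 peak in WT and Tet2-/- cells, and 1 of the pair had lost H3K4me1 in both Ep300-deleted genotypes. Notch2, the receptor that instructs several lymphoid and myeloid fates, had 5 of 8, with H3K4me1 at all 5 in every genotype. Etv6, an ETS repressor needed by blood stem cells, had 5 doubly lost regions of 21, with 9 kept in 1 Ep300-deleted list and 7 acetylated throughout, and H3K4me1 at all 5 in every genotype. Zfp217 had 5 of 14, Tbc1d2b 5 of 10, Irf2 4 of 10, and Chd7, Tns3, and Zmiz1 4 of 8 each. Gas7 and Ppp2r5c had 4 of 7 each. The genes with the most doubly lost regions thus ranged from ones whose distal acetylation was all of this class to ones, such as Etv6 and Zfp217, where most of it was called in an Ep300-deleted genotype too.

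**Figure D5:**
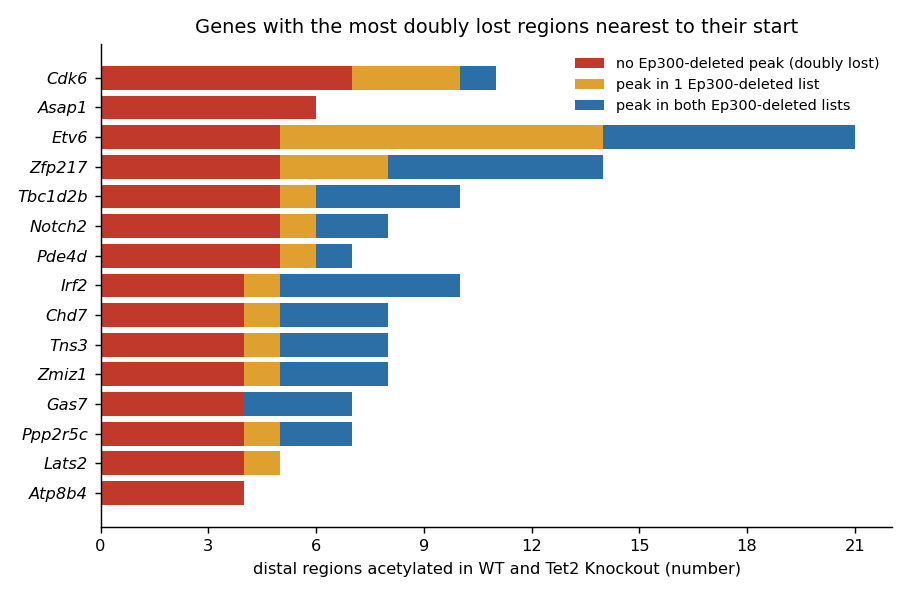
Number of distal regions acetylated in WT and Tet2 Knockout cells at the 15 genes with the most doubly lost regions, by the nearest protein-coding start. Red marks regions without H3K27ac in either Ep300-deleted list, yellow regions with it in 1, and blue regions with it in both. Asap1 and Atp8b4 have red regions only, and Etv6 has 5 of 21.

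Genes were also grouped by role, and counts are read against the 40.6% of all genes and the 28.4% of all regions above. The lists were chosen with earlier results of these data known, and most hold too few genes with distal acetylation for a narrow interval. Of 12 stem and progenitor regulators with a distal region acetylated in WT and Tet2-/- cells, 7 had a doubly lost one, but these made up only 13 of their 66 regions (19.7%). They were Etv6 with 5, Runx1 with 3, and Erg, Gata2, Lmo2, Myc, and Tal1 with 1 each. The Runx1 regions, near the gene of a core-binding factor subunit, had H3K27ac enrichments of 8.66, 5.61, and 3.77 in WT and 3.004, 3.70, and 3.91 in Tet2-/- cells, and H3K4me1 in every genotype. Among 14 myeloid regulators, 6 had a doubly lost region (8 of 29 regions, 27.6%), among them Bcl6 and Runx3 with 2 each and Cebpa and Spi1, the genes of the factors that direct granulocyte and monocyte fate, with 1 each. The Cebpa region lay 31819 bp from its start and kept H3K4me1 in every genotype, at enrichments of 8.99, 6.45, 11.0, and 7.80 in WT, Ep300Δ/Δ, Tet2-/-, and Ep300Δ/ΔTet2-/- cells.

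All 6 T and NK lymphoid genes with distal acetylation had a doubly lost region (interval for the share, 54.1% to 100%), and these made up 8 of their 13 regions. They were Ets1 and Notch1 with 2 each and Eomes, Il2rb, Satb1, and Tcf7 with 1. At Notch1, the receptor that commits progenitors to the T lineage, the regions had H3K27ac enrichments of 3.63 and 5.51 in WT and 3.13 and 6.43 in Tet2-/- cells, and H3K4me1 in every genotype. At Ets1 one region (8.14 in WT, 7.13 in Tet2-/- cells) had H3K4me1 only in Ep300Δ/Δ cells, and the other (3.43 and 4.25) had it in all but Ep300Δ/ΔTet2-/- cells. Of the 5 mature T cell markers checked, Trac had promoter H3K27ac in every list, and Cd3e, Cd3g, Cd4, and Cd8a had none in any list. Among 11 genes of Notch and Wnt signaling, 7 had doubly lost regions (13 of 29 regions, 44.8%): Notch2 with 5, Maml1, the gene of a Notch coactivator, and Notch1 with 2 each, and Maml2, Nrarp, Rbpj, and Tcf7 with 1 each. Notch1 and Tcf7 were on both lists. B-lymphoid genes gave 3 of 5 (5 of 14 regions, 35.7%), with 2 regions each at Bach2 and Bcl11a and 1 at Ikzf3.

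Of 9 basophil, mast cell, and eosinophil genes, 6 had a doubly lost region (7 of 15 regions, 46.7%): Kit with 2, and Alox5, Gata2, Il13, Il4, and Srgn with 1 each. The 2 regions assigned to Kit, the stem cell factor receptor, lay 196579 and 114321 bp from its start, with starts of other transcripts closer, and the farther one had lost H3K4me1 in both Ep300-deleted genotypes. The Gata2 region had H3K27ac of 4.06 in WT and 4.46 in Tet2-/- cells, H3K4me1 in all 4 lists, and H3K4me3 in WT (3.48) and Tet2-/- cells (3.49) only. Growth factor and cytokine receptors gave 5 of 10 genes (8 of 38 regions, 21.1%): Kit, Tgfbr2, and Tnfrsf1b with 2 regions each, and Csf2rb and Ifngr1 with 1. The region near Csf2rb, the common beta chain of the IL-3 and GM-CSF receptors, had lost H3K4me1 in both Ep300-deleted genotypes. Adhesion and chemokine receptor genes gave 7 of 12 (10 of 39 regions, 25.6%), with 2 regions each at Cxcr4, which holds stem cells in the marrow, Cd44, and Itga4. Erythroid genes gave 2 of 4 (Ank1 and Fech, 2 of 5 regions) and megakaryocyte genes 1 of 5 (Rap1b, 1 of 11 regions). Neutrophil and monocyte effector genes gave 1 of 3 (Ccl9, with 2 of 5 regions).

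JAK-STAT genes gave 6 of 12, with 1 region each at Jak1, Mcl1, Pias1, Pim1, Ptpn2, and Stat5b (6 of 26 regions, 23.1%). NF-kB and TNF genes gave 3 of 10, with 3 regions at Nfkb1 and 1 each at Ccl5 and Tnip1 (5 of 20 regions, 25.0%). AP-1 and immediate early factors gave 8 of 19, with 2 regions at Dusp1 (9 of 42 regions, 21.4%). Apoptosis genes gave 3 of 6 (4 of 21 regions, 19.0%), among them Bcl2 with 2 regions 194213 and 196690 bp from its start. Kinases and signaling scaffolds gave 8 of 17 (16 of 55 regions, 29.1%), with 5 at Pde4d and 3 each at Pik3r1 and Ptk2b, of which H3K4me1 was called in every genotype at all Pik3r1 and Ptk2b regions. Acetyltransferase, TET, and chromatin enzyme genes gave 3 of 9, namely Asxl1, Dnmt1, and Hdac4 (3 of 17 regions, 17.6%). Cell cycle regulators gave 1 of 6, which was Cdk6 (7 of 24 regions, 29.2%). Over all 18 lists together 77 of 158 genes had a doubly lost region (48.7%, 40.7% to 56.8%). A gene with many distal regions, such as Etv6 with 21, has more chances to hold a doubly lost one. The part of that number in the gene share was not tested. With regions assigned to the nearest start of any annotated gene, the share was 49 of 115 (42.6%, 33.4% to 52.2%). Under that assignment, 1089 of all 2927 genes with a distal region acetylated in WT and Tet2-/- cells had a doubly lost one. The 42.6% is to be read against these counts.

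Most doubly lost regions had no other doubly lost region close by. They were not all apart from kept acetylation: 534 (41.3%) had a peak of an Ep300-deleted list within 5000 bp. For regions acetylated in WT alone that share was 42.6%. Runs of other classes are not given here. With region starts at most 12.5 kb from the next, 228 of the 1293 fell into 105 runs, of which 88 had 2 regions, 16 had 3, and 1 had 4. The run of 4 lay between genes on chromosome 11 (8703474 to 8710263), 38939 to 45446 bp from a start of Tns3, which encodes the adhesion protein tensin-3. Its regions had H3K27ac enrichments of 4.83, 4.23, 14.5, and 7.41 in WT and 2.33, 5.13, 3.49, and 3.72 in Tet2-/- cells. H3K4me1 was called at the first 3 in every genotype and at the fourth only in Ep300Δ/ΔTet2-/- cells. Runs of 3 lay in introns of Pgs1 (chromosome 11, 117992096 to 117994293) and Ubac2 (chromosome 14, 121930032 to 121932532), and H3K4me1 was called at all 3 regions of both in every genotype, in part under a single H3K4me1 peak shared by neighbours. No distal region kept in an Ep300-deleted genotype lay inside any of these 3 runs.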

How the data were processed

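H3K27ac, H3K4me1, and H3K4me3 ChIP-Seq of Lin- cells gave 12 peak lists, 1 per genotype and mark. H3 and H3K27me3 libraries were not analysed here. Per the study's methods, the authors removed adapters (cutadapt 1.15), mapped reads to mm10 (BWA 0.7.13), removed duplicates (Picard), and required a mapping quality above 30. Peaks were called by the authors with MACS2 2.1.1.20160309 against the H3 library of the same genotype, and those shared by pseudo-replicates of the library were deposited, at a stated q below 0.05. The methods describe paired-end 75-base reads and the labels single-end reads. The deposited lists give a fold enrichment (a ratio over H3), −log10 p-value and −log10 q-value columns, and a score, which was not used. In the deposited −log10 q column, between 0.137% and 7.17% of the peaks of a list exceed that q. The lists are not described as scaled by the Drosophila spike-in, so differences in yield between libraries stay in the calls, and a region just under the threshold counts as absent.

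The 4 H3K27ac lists were merged (overlap of 1 bp or more), and distances were taken to every transcript start of GENCODE M21 on GRCm38, the assembly also called mm10. Sequences came from the RefSeq GRCm38 assembly. Scripts ran under Python 3.11.15 with pandas 2.3.3 on numpy 2.4.6, reading sequences by pysam 0.24.0, taking exact intervals from scipy 1.17.1, and drawing with matplotlib 3.10.9. The overlap code was tested on simulated data against bedtools. Samples were grouped by the genotype and mark in their labels. The regions, gene lists, and motifs were chosen with earlier results of these data known. Named were the 10 regions with the highest lower percentile of fold enrichment over WT and Tet2-/-, the 5 strongest with H3K4me1 lost in both Ep300-deleted genotypes, the genes with the most regions overall (15 with ties) and up to 4 per list, the 3 densest runs, and 3 regions on each side of the distance limit. One of the 10 regions and 1 marker list of the cell type check are not reported here. Other list members were named after their counts were seen. Alternatives for overlap, distance, q, list length, transcript starts, and motif window are described with the observations, and the one for gene assignment beside its result. No test between genotypes was made.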

Additional observations from a re-analysis of the deposited data

How the results depend on the processing

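No paired analysis was possible because each genotype and mark had 1 library. Under the alternatives to the overlap, the distances, the thresholds, and the list length, one of which (q of at most 0.05 in all H3K27ac lists, 1356 regions) was chosen after seeing the data, 60 values stayed within the 95% interval of the value reported or, for counts, within 1.5 times of it, and the 27 given here did not. The number of doubly lost regions was 562 with −log10 q of at least 5 required in WT and Tet2-/- and 433 with the lists cut to the length of the shortest, and lay between 1068 and 1524 otherwise. With at least 0.5 of a region covered, H3K4me1 was found at 90.1% in Ep300Δ/Δ and 90.7% in Ep300Δ/ΔTet2-/- cells, and its loss was 6.88% and 5.48% on the WT and Tet2-null backgrounds. With −log10 q of at least 5 in all H3K27ac lists these values were 89.8%, 91.9%, 6.48%, and 4.15%. With that threshold in WT and Tet2-/- only, H3K4me1 was found at 84.3% in Ep300Δ/Δ cells, its loss on the WT background was 11.2%, and 54.1% of regions were intronic. With lists of equal length it was found at 90.5% in Ep300Δ/ΔTet2-/- cells and its loss there was 4.93%. Counting H3K4me1 only over the WT summit gave 91.03% in WT, 84.1% in Ep300Δ/Δ, and 86.1% in Ep300Δ/ΔTet2-/- cells, with losses of 11.2% and 8.62%. Requiring −log10 q of at least 5 for H3K4me1 gave 84.7%, 67.9%, 90.95%, and 75.8% in WT, Ep300Δ/Δ, Tet2-/-, and Ep300Δ/ΔTet2-/- cells, with losses of 24.0% and 17.9%. In the wider motif windows 1 family (ETS) had intervals that did not overlap. The share lost was higher at doubly lost regions than at regions acetylated in all 4 genotypes in all 11 alternatives for H3K4me1 and all 9 that could change it for H3K4me3, on both backgrounds, and the intervals did not overlap except for H3K4me1 on the Tet2-null background with −log10 q of at least 5 in all H3K27ac lists (4.15% against 2.04%). The cause of these shifts was not tested. No alternative counted H3K4me3 over the summit alone, so the width of regions stayed in its values. Without read totals, an absent call cannot be given a detection limit.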
